A study of Homo sapiens with 6 samples.

Results

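The genes described here act at the mitotic spindle, the centrosome and the cleavage furrow. They are 45 genes chosen by name, all present on reference chromosomes in the authors' gene table, of 63152 genes counted. The list holds proteins that organise spindle microtubules, the augmin complex, midzone and cytokinesis proteins, centriole and pericentriolar proteins, the chromosomal passenger subunits beside their kinase, and separase with securin. Kinesin motors are not in it. A HAUS7 copy on a patch sequence was left out by the rule, and all 45 genes passed the filter on low counts.

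The libraries come from A549, a cell line from a human lung adenocarcinoma. In the siRPS19 group the cells received a pool of siRNAs against RPS19, a gene for a protein of the small ribosomal subunit. In the siOTP group they received a non-targeting control siRNA from another product line, so the chemistry of the reagent and its target changed together. Both groups were reverse transfected at 10 nM with the same lipid reagent and collected after 72 hours, with 3 biological replicates each. The labels give each replicate number a date of its own, shared by both groups, without saying which step was done on it.

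Counts on genes ran from 20814110 to 23889372 per library. RPS19 (ENSG00000105372, chromosome 19, 42363988 to 42376994, hg19) had 1159, 830 and 1073 counts in siRPS19 replicates 1 to 3, against 30731, 27124 and 30387 counts in siOTP replicates 1 to 3. In CPM (counts relative to the library total, scaled by TMM factors) this was 41.7 ± 4.91 in siRPS19 and 1472 ± 96.6 in siOTP. It was therefore low in every library labelled siRPS19, at a log2 fold change of -5.14 ± 0.09 (SE). Of 5 epithelial markers tested, 3 fell and 2 rose. The keratin genes KRT8 and KRT18 stood at 752 and 164 CPM in siRPS19 and at 1459 and 432 CPM in siOTP, and EPCAM was low in both groups, at 3.36 CPM in siRPS19 and 4.98 CPM in siOTP. KRT19 and CDH1 rose, to 245 and 50.0 CPM in siRPS19, against 35.7 and 30.6 CPM in siOTP. Of other cell types, leukocyte markers summed to 1.85 to 2.98 CPM in siRPS19 and 1.49 to 2.33 CPM in siOTP, with CD3E at 0 in all 6 libraries. Endothelial markers summed to at most 0.390 CPM in siRPS19 and 0.152 CPM in siOTP, and fibroblast markers to 18.2 to 23.004 CPM and 35.4 to 42.9 CPM.

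As background, the spindle is built anew at each division. Microtubules are nucleated at centrosomes, around chromatin and, through augmin, from the sides of existing microtubules. After separase has cut the link between sister chromatids, an antiparallel bundle at the midzone positions the contractile ring, and abscission parts the daughter cells. Many of these genes are transcribed mainly in G2 and mitosis and are repressed in cells that leave the cycle, while others encode microtubule and centrosome proteins that interphase cells use as well.

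After RPS19 siRNA, 43 of the 45 genes fell, 1 rose (NUMA1) and 1 did not pass the test (TACC1). Over all 17171 genes tested, 78.3% passed the threshold of 0.05 for the adjusted p of edgeR's quasi-likelihood test, 38.9% falling and 39.5% rising. The falls were large. Of the 45 genes, 40 fell at least 2-fold, against 12.4% of all genes tested, 25 fell at least 8-fold, against 1.57%, and 16 fell at least 32-fold, against 0.512%. The median log2 fold change was -3.28, where the median over all genes tested was 0.02. Groups stood apart, with no siRPS19 library inside the siOTP range or the reverse, for 44 of the 45 genes, against 79.7% of all genes tested. Of the pairs of libraries that share a date, all 3 were lower in siRPS19 for 43 genes and higher for 1. Where groups stand apart all 3 pairs must agree, so this count adds nothing to the one before it. Its share over all genes was not computed.

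The 45 genes together took 0.116%, 0.115% and 0.119% of the gene counts in siRPS19 replicates 1 to 3, against 0.510%, 0.511% and 0.509% in siOTP replicates 1 to 3. In bulk RNA, fewer cells in G2 and mitosis and less of each mRNA per cell cannot be told apart. Cells at each stage were not counted in these data. The siRPS19 libraries also had more reads outside genes (5.13% to 6.36% of all entries, against 3.39% to 3.85% in siOTP), and the part of this in the falls was not tested.

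**Figure D1:**
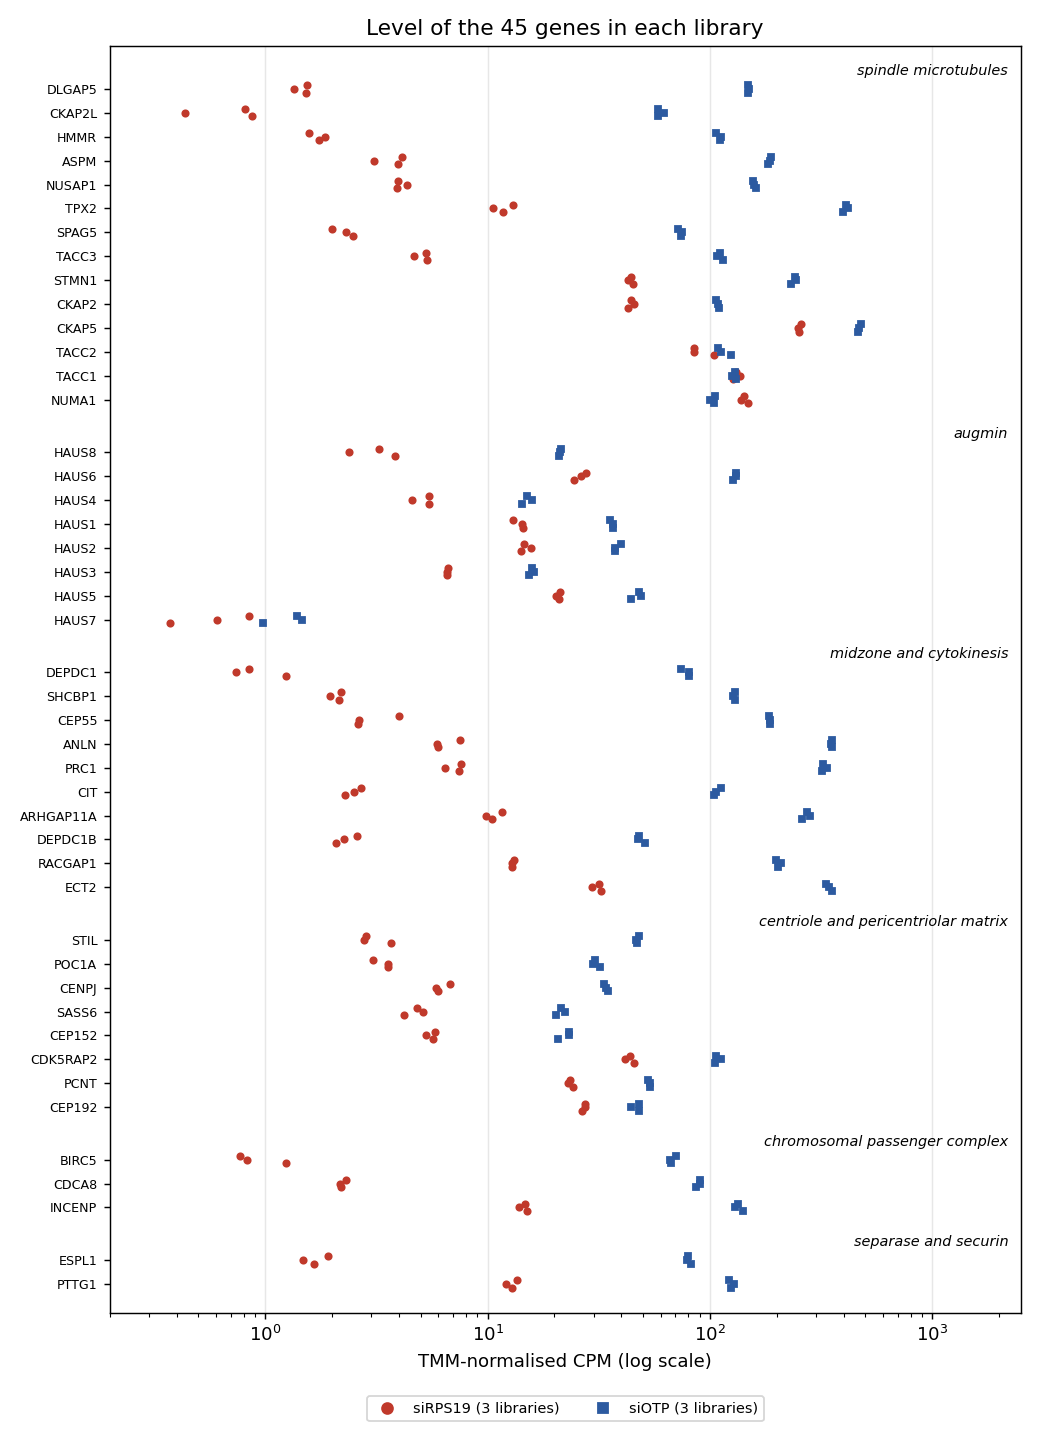
Level of each of the 45 genes in every library, as TMM-normalised CPM on a log axis, with red circles for the 3 siRPS19 libraries, blue squares for the 3 siOTP libraries and rows grouped by role. The groups stand apart for every gene except TACC1, where they overlap, and siRPS19 is the higher group for NUMA1 alone of the others.

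The start regions of these genes were searched for short elements known from cell cycle promoters. As background, the cell cycle genes homology region (CHR) is bound by the DREAM complex and by MuvB with B-MYB, the CCAAT box by NF-Y, and E2F sites by E2F factors and by DREAM. The window was 250 bases before to 50 after the RefSeq start (GRCh38.p14), and entries for 40 of the 45 genes were used. The others were TPX2, TACC1, RACGAP1, CENPJ and BIRC5. For the 40 genes and for tested genes, only the first start listed for a gene was used, and any other start was not searched. The set of all windows had no such limit. Each window was searched on either strand. For the CHR core the letters were TTTGAA and, as another accepted form, TTCGAA. For the CCAAT box the letters were those of its name. For the E2F core they were TTCCCGC and, as another accepted form, TTGGCGC. None of these words contains another.

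A CHR core was found in 22 of the 40 windows (55.0%), against 11.0% of the 10516 windows of tested genes and 16.4% of all 35116 windows. CCAAT was found in 26 (65.0%), against 36.1% and 34.6%, and both together in 18, against shares of 4.63% and 6.38%. An E2F core was found in 14 of the 40, against shares of 14.5% and 9.23%. Of the 22 genes with a window that fell at least 8-fold, 17 held a CHR core and 4 an E2F core. Of the other 18, 5 held a CHR core and 10 an E2F core. The CHR cores lay close to the start. In 19 of the 40 windows (47.5%) a CHR core began between positions -40 and 50, against 2.84% of the windows of tested genes, a span chosen after the positions were seen. The 18 genes with both elements had a median log2 fold change of -5.47, from -6.65 to -0.79. The 4 with only a CHR core had a median of -3.89, the 8 with only CCAAT -1.81 and the 10 with neither -1.47. The classes overlapped. CKAP5 and CEP192 carried both elements in the window used and fell by only 0.89 and 0.79 on the log2 scale. ARHGAP11A and TACC3 carried neither in the window used and fell by 4.67 and 4.44. Other starts of these genes were not searched. A match in these letters is a description of the window, and no binding was measured.

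**Figure D2:**
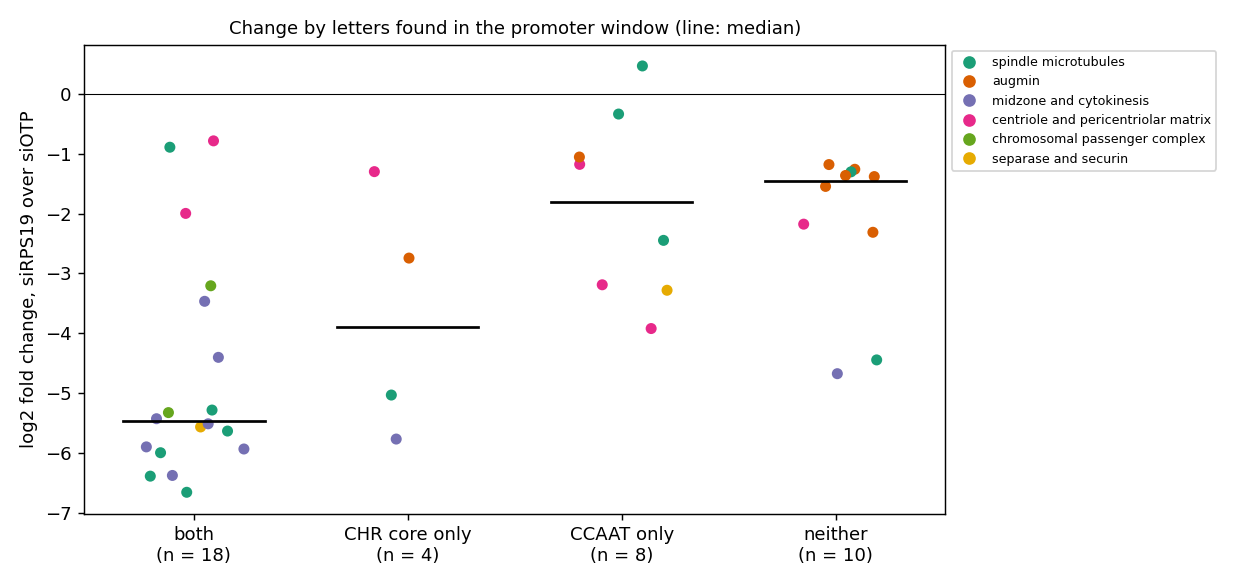
Log2 fold change of siRPS19 over siOTP for the 40 genes with a start region in the table, one point per gene, coloured by role and split by whether the window holds a CHR core and CCAAT, with the median as a line. The 18 genes with both have the lowest median, -5.47, and the 10 with neither have a median of -1.47.

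The 120 bases before the start are shown for 4 genes that fell strongly and hold both elements, DEPDC1, PRC1, ESPL1 and CKAP2L, and for 3 that fell less and hold no CHR core, CKAP2 (the relative of CKAP2L), HAUS2 and HAUS5. All are from RefSeq, GRCh38.p14, written 5′ to 3′ on the gene's strand, and capitals mark CHR cores, CCAAT boxes and E2F cores on either strand.
DEPDC1 (chr1:68497083-68497202, minus strand): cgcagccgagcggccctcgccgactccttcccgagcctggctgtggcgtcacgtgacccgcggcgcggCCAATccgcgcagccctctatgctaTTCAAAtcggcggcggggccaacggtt
PRC1 (chr15:90994536-90994655, minus strand): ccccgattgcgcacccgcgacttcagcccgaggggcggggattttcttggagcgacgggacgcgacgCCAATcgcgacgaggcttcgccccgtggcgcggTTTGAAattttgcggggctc
ESPL1 (chr12:53268179-53268298, plus strand): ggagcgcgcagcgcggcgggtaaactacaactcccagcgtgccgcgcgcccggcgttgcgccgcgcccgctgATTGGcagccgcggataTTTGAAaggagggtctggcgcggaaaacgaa
CKAP2L (chr2:112764610-112764729, minus strand): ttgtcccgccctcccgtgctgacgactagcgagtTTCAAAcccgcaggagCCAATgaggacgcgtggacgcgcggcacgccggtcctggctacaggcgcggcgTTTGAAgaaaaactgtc
CKAP2 (chr13:52455868-52455987, plus strand): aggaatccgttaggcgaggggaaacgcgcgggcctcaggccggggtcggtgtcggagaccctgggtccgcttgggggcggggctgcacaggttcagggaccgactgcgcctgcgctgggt
HAUS2 (chr15:42548718-42548837, plus strand): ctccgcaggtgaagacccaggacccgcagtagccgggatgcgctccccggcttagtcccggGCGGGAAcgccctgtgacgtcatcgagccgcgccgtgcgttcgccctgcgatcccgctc
HAUS5 (chr19:35612615-35612734, plus strand): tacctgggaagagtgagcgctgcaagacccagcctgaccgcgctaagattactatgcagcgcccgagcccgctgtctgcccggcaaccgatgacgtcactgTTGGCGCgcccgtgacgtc

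In DEPDC1, PRC1 and ESPL1 a CHR core began at positions -27, -20 and -31, downstream of a CCAAT box at -52, -53 and -48. CKAP2L held CHR cores at -86 and -17 with CCAAT between them at -70. CKAP2 held none of the searched letters in its whole window. HAUS2 held an E2F core at -59 and another at 5, after the start, and HAUS5 held an E2F core at -19. These are the windows of the starts used, and other starts of these genes were not searched.

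Among the 14 genes for spindle microtubules, 12 fell, with a median log2 fold change of -4.74. DLGAP5 (ENSG00000126787, chromosome 14, 55614830 to 55658396, hg19), whose protein HURP stabilises kinetochore fibres, fell most of the 45. It had 1.54, 1.34 and 1.53 CPM in siRPS19 replicates 1 to 3, against 148, 149 and 149 CPM in siOTP replicates 1 to 3. That is 101-fold lower, a log2 fold change of -6.65 ± 0.07 (SE; adjusted p = 8.37e-24 by edgeR's test). TPX2 (ENSG00000088325, chromosome 20, 30327074 to 30389608, hg19), which activates Aurora A and promotes nucleation around chromatin, had 13.1, 10.5 and 11.8 CPM in siRPS19 replicates 1 to 3, against 411, 419 and 399 CPM in siOTP replicates 1 to 3. It fell 34.6-fold, at -5.11 ± 0.06. The siRPS19 libraries still held 243 to 340 counts on it, so this remaining level was measured with more counts than that of DLGAP5, which had 31 to 40.

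Most of the other spindle genes that fell were also far lower in every siRPS19 library. HMMR, a spindle pole adaptor, was 63.7-fold lower, with means of 1.73 ± 0.144 CPM in siRPS19 and 109.9 ± 2.89 CPM in siOTP (± is the SD of 3 libraries). ASPM, which acts at microtubule minus ends at the poles, fell 49.5-fold to 3.72 ± 0.562 CPM in siRPS19, against 185.6 ± 3.01 CPM in siOTP. NUSAP1, a microtubule bundling protein, fell 38.9-fold, and SPAG5, which encodes astrin, fell 32.7-fold. SPAG5 overlaps other annotated genes whose counts came to 15.3% of its own over the 6 libraries, and the kit is not stated to mark strand. STMN1, which encodes the tubulin-binding protein stathmin, fell less, 5.46-fold, to 43.9 ± 1.17 CPM in siRPS19, against 239.5 ± 7.01 CPM in siOTP.

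Family members differed. CKAP2L had 0.808, 0.434 and 0.869 CPM in siRPS19 replicates 1 to 3, against 58.6, 62.1 and 58.6 CPM in siOTP replicates 1 to 3, and fell 83.5-fold. CKAP2, a related microtubule-associated protein, had 44.0, 45.4 and 42.8 CPM in siRPS19, against 107, 109 and 110 CPM in siOTP, and fell 2.47-fold. The log2 ratio of CKAP2L to CKAP2 within a library was -6.03 ± 0.591 in siRPS19 and -0.87 ± 0.0498 in siOTP (mean ± SD of 3 libraries). The siRPS19 mean minus the siOTP mean was -5.17, and the two-sided exact permutation test gave p = 0.1, which is as low as 3 against 3 can go.

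The TACC family also spread widely. TACC3, which with clathrin and CKAP5 crosslinks kinetochore fibres, had 5.27, 4.68 and 5.34 CPM in siRPS19 replicates 1 to 3, against 111, 108 and 114 CPM in siOTP replicates 1 to 3, and fell 21.8-fold. TACC1 (ENSG00000147526, chromosome 8, 38585704 to 38710546, hg19) had 131, 137 and 127 CPM in siRPS19, against 130, 125 and 132 CPM in siOTP, and its groups overlapped. Its log2 fold change was 0.03 ± 0.04 (SE), with an adjusted p = 0.482 by the quasi-likelihood test of edgeR. Scaled by library totals instead, it was 0.32, with adjusted p = 5.78e-07 in edgeR. TACC2 had 84.6, 85.0 and 104 CPM in siRPS19, against 109, 113 and 125 CPM in siOTP, a log2 fold change of -0.34 ± 0.10 (adjusted p = 0.0137 by edgeR's test). That call was lost with library totals (-0.05, adjusted p = 0.646 in edgeR), with upper-quartile factors (-0.17, adjusted p = 0.155) and without replicate 2 of both groups (-0.32, adjusted p = 0.163). The log2 ratio of TACC3 to TACC1 was -4.69 ± 0.153 in siRPS19 and -0.21 ± 0.0107 in siOTP, and that of TACC3 to TACC2 was -4.16 ± 0.144 in siRPS19 and -0.05 ± 0.0795 in siOTP (mean ± SD of 3 libraries; exact permutation p = 0.1 for both).

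NUMA1 and CKAP5, which act at spindle poles and plus ends and are also expressed in interphase, changed little in comparison. NUMA1 had 142, 139 and 149 CPM in siRPS19 replicates 1 to 3, against 106, 101 and 105 CPM in siOTP replicates 1 to 3. It was the gene that rose, by 0.46 ± 0.04 (SE) on the log2 scale (adjusted p = 1.97e-09 by edgeR's test), and it did so under every scaling tried. Genes that overlap NUMA1, IL18BP and LRTOMT among them, had counts equal to 17.5% of its own, and whether the counting could divide such reads by strand is not given in the sources used here. CKAP5, the microtubule polymerase ch-TOG, had 258, 251 and 252 CPM in siRPS19, against 477, 469 and 466 CPM in siOTP, and fell 1.86-fold.

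All 8 augmin genes fell, with TMM scaling each at least 2-fold and none 8-fold, with a median log2 fold change of -1.37. Augmin is a complex of 8 subunits, and HAUS6 takes part in its contact with the gamma-tubulin ring while HAUS8 binds microtubules. The largest falls were those of HAUS8 and HAUS6. HAUS8 had 3.23, 2.39 and 3.85 CPM in siRPS19 replicates 1 to 3, against 21.5, 21.2 and 21.0 CPM in siOTP replicates 1 to 3, and fell 6.70-fold. HAUS6 had 27.7, 26.2 and 24.5 CPM in siRPS19, against 132, 132 and 127 CPM in siOTP, and fell 4.97-fold. The other 6 genes lay close together, from -1.55 ± 0.10 for HAUS4 to -1.06 ± 0.30 for HAUS7.

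HAUS7 was measured with the fewest counts of them. It had 22, 14 and 9 counts in siRPS19 replicates 1 to 3, against 29, 29 and 19 in siOTP replicates 1 to 3, and genes that overlap it, TREX2 among them, had counts equal to 117% of its own. In edgeR's quasi-likelihood test its adjusted p was 0.00296. HAUS1 overlaps the highly expressed ATP5A1 gene on the other strand, and genes that overlap HAUS1 had counts equal to 1648% of its own. HAUS3 overlaps POLN, which stood at 5.12 to 6.31 CPM in siRPS19 and 2.11 to 2.25 CPM in siOTP. Genes that overlap HAUS3 had counts equal to 39.0% of its own. In the start regions, 6 of the 8 augmin genes held an E2F core (75.0%, against 14.5% of tested genes), 1 held a CHR core (12.5%) and 1 held CCAAT (12.5%). The 9 midzone and cytokinesis genes with a window had the other makeup, with 8 holding a CHR core (88.9%), 7 CCAAT (77.8%) and 2 an E2F core (22.2%).

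All 10 midzone and cytokinesis genes fell at least 8-fold, with a median log2 fold change of -5.47. PRC1 (ENSG00000198901, chromosome 15, 91509270 to 91538859, hg19) bundles antiparallel microtubules at the midzone. It had 7.62, 6.42 and 7.45 CPM in siRPS19 replicates 1 to 3, against 325, 337 and 320 CPM in siOTP replicates 1 to 3. RACGAP1, a subunit of centralspindlin, had 13.1, 12.8 and 12.9 CPM in siRPS19, against 199, 209 and 202 CPM in siOTP, and fell 15.7-fold. ECT2, the exchange factor that centralspindlin recruits to activate RhoA, had 31.6, 29.5 and 32.4 CPM in siRPS19, against 333, 345 and 356 CPM in siOTP. ECT2 fell 11.0-fold, the least of the 10, and the libraries of the groups lay far apart for all 3 of these genes.

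Genes for the ring and the midbody fell by similar or larger factors. ANLN, the scaffold protein anillin of the contractile ring, had 7.54, 5.90 and 5.96 CPM in siRPS19 replicates 1 to 3, against 355, 352 and 353 CPM in siOTP replicates 1 to 3, and fell 54.4-fold. ANLN overlaps KIAA0895 on the other strand, whose counts came to 13.5% of its own. CEP55, which brings the abscission machinery to the midbody, averaged 3.08 ± 0.794 CPM in siRPS19 and 185.5 ± 1.32 CPM in siOTP, and fell 59.5-fold. CIT, the midbody protein citron kinase, fell 43.0-fold, and SHCBP1, a partner of centralspindlin at the midbody, fell 61.0-fold. Replicate 1 of siRPS19 was the highest of its group for ANLN, CEP55 and CIT.

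The remaining genes of the midzone and cytokinesis group are DEPDC1, DEPDC1B and ARHGAP11A. DEPDC1 had 0.846, 0.737 and 1.24 CPM in siRPS19 replicates 1 to 3, against 73.9, 81.0 and 80.7 CPM in siOTP replicates 1 to 3, and fell 82.8-fold. DEPDC1B had 2.58, 2.26 and 2.07 CPM in siRPS19, against 48.2, 47.3 and 51.1 CPM in siOTP, and fell 21.1-fold. The log2 ratio of DEPDC1 to DEPDC1B was -1.32 ± 0.504 in siRPS19 and 0.68 ± 0.0817 in siOTP (mean ± SD of 3 libraries; exact permutation p = 0.1, the smallest possible). ARHGAP11A, a RhoA-inactivating protein, fell 25.5-fold to 10.6 ± 0.895 CPM in siRPS19, against 272 ± 11.3 CPM in siOTP. ARHGAP11A has a near-identical partial copy, ARHGAP11B, and how reads were divided between them is not known.

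All 8 centriole and pericentriolar genes fell, over a wide range of sizes, with a median log2 fold change of -2.09. Among these 8, the genes placed here under centriole assembly fell more than those placed under the surrounding matrix. That split was not among the planned roles. Of 29 other centriole and centrosome genes, 18 fell and 6 rose, against 38.9% and 39.5% of all genes tested. Those 29 were not split in this way, so the order is a description of the 8 genes only. STIL, a core factor of centriole duplication, had 2.85, 2.78 and 3.68 CPM in siRPS19 replicates 1 to 3, against 47.8, 46.3 and 46.9 CPM in siOTP replicates 1 to 3, and fell 15.1-fold. POC1A fell 9.12-fold to 3.39 ± 0.299 CPM in siRPS19, against 30.8 ± 1.12 CPM in siOTP. CENPJ, which elongates centrioles, fell 5.48-fold, SASS6, the cartwheel protein, 4.52-fold, and CEP152, which helps recruit PLK4, 3.99-fold.

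The matrix genes had smaller values. CDK5RAP2, which activates the gamma-tubulin ring, fell 2.46-fold to 43.8 ± 2.05 CPM in siRPS19, against 108 ± 3.26 CPM in siOTP. PCNT, the scaffold pericentrin, fell 2.26-fold. CEP192, which organises matrix assembly in mitosis, had 27.4, 27.3 and 26.5 CPM in siRPS19 replicates 1 to 3, against 47.8, 44.2 and 48.1 CPM in siOTP replicates 1 to 3, and fell 1.73-fold. The log2 ratio of STIL to CEP192 was -3.14 ± 0.253 in siRPS19 and 0.01 ± 0.0529 in siOTP (mean ± SD of 3 libraries), a difference of -3.15 (exact permutation p = 0.1, the smallest possible).

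The chromosomal passenger complex corrects attachments before anaphase and marks the midzone after it. Its 3 subunits here fell unequally. BIRC5, which encodes survivin, had 0.769, 0.824 and 1.24 CPM in siRPS19 replicates 1 to 3, against 70.2, 66.1 and 67.1 CPM in siOTP replicates 1 to 3, and fell 71.5-fold. CDCA8, which encodes borealin, had 2.31, 2.17 and 2.19 CPM in siRPS19, against 90.6, 90.4 and 86.9 CPM in siOTP, and fell 40.0-fold. INCENP, the scaffold that holds the Aurora kinase, had 14.8, 13.9 and 15.1 CPM in siRPS19, against 134, 130 and 140 CPM in siOTP, and fell 9.23-fold. The log2 ratio of BIRC5 to INCENP differed by -2.99 between siRPS19 and siOTP, and that of CDCA8 to INCENP by -2.12 (exact permutation p = 0.1 for both).

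Separase and its inhibitor securin also fell by unlike amounts. ESPL1, the protease separase that cleaves cohesin, had 1.92, 1.47 and 1.66 CPM in siRPS19 replicates 1 to 3, against 79.6, 78.8 and 82.5 CPM in siOTP replicates 1 to 3, and fell 47.3-fold. PTTG1, which encodes securin, had 13.5, 12.1 and 12.9 CPM in siRPS19, against 122, 129 and 124 CPM in siOTP, and fell 9.72-fold. The log2 ratio of ESPL1 to PTTG1 was -2.94 ± 0.110 in siRPS19 and -0.64 ± 0.0595 in siOTP (mean ± SD of 3 libraries; exact permutation p = 0.1, the smallest possible). PTTG1 has retrotransposed copies, and how multiply matching reads were handled is not known. The 8 ratios were picked after the fold changes were seen, so their exact permutation p of 0.1 is a description and no separate evidence. Adjustment over 8 equal values returns 0.1 for each by construction.

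**Figure D3:**
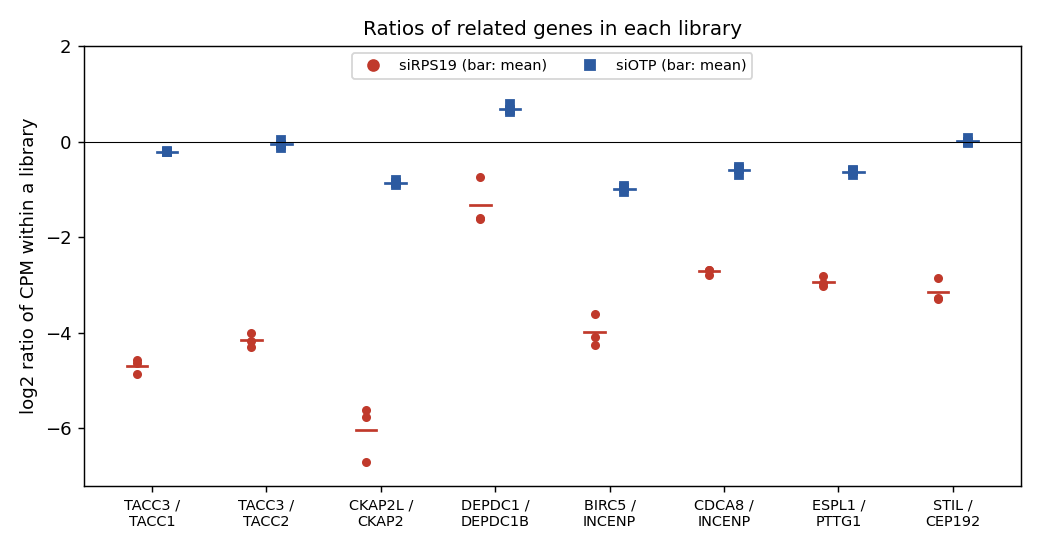
Log2 ratio of the CPM of related genes within each library, with red circles for siRPS19, blue squares for siOTP and a bar at each group mean of 3 libraries. The siRPS19 libraries lie below the siOTP libraries for all 8 ratios, with the largest difference, -5.17, for CKAP2L over CKAP2.

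The order of the genes by level per transcript length also differed between the groups. On the scale of RPKM (TMM-normalised CPM per kilobase of the transcript length in the authors' table), the median of the 45 genes was 1.30 in siRPS19 and 16.4 in siOTP. Below 1 RPKM stood 18 genes in siRPS19 and 1 gene, HAUS7, in siOTP. The highest levels in siRPS19 were those of CKAP5 (29.7 RPKM), TACC1 (10.5), CKAP2 (9.69) and NUMA1 (9.40). The highest levels in siOTP were those of TPX2 (114 RPKM), ECT2 (62.7), PTTG1 (62.2) and PRC1 (59.3). Of the 10 genes with the highest level in each group, 3 were shared. TACC1 was the second of 45 in siRPS19 and 29 of 45 in siOTP, and NUMA1 4 of 45 in siRPS19 and 34 of 45 in siOTP. In the authors' deposited table, which gives a value per group and not per library, TPX2 stood at 3.63 RPKM for siRPS19 and 102.48 for siOTP, and TACC1 at 11.49 and 9.23. The TMM-scaled RPKM of TACC1 computed here was 10.5 in siRPS19 and 10.2 in siOTP, so the authors' values are on another scale. On the authors' scale TACC1 was higher in siRPS19, as with library totals above, and TACC2 stood at 5.33 for siRPS19 and 5.53 for siOTP. HAUS3 stood there at 1.03 and 2.02, HAUS5 at 4.5 and 8.39 and HAUS7 at 0.16 and 0.27. These falls were under 2-fold, while those of the other augmin genes were not.

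**Figure D4:**
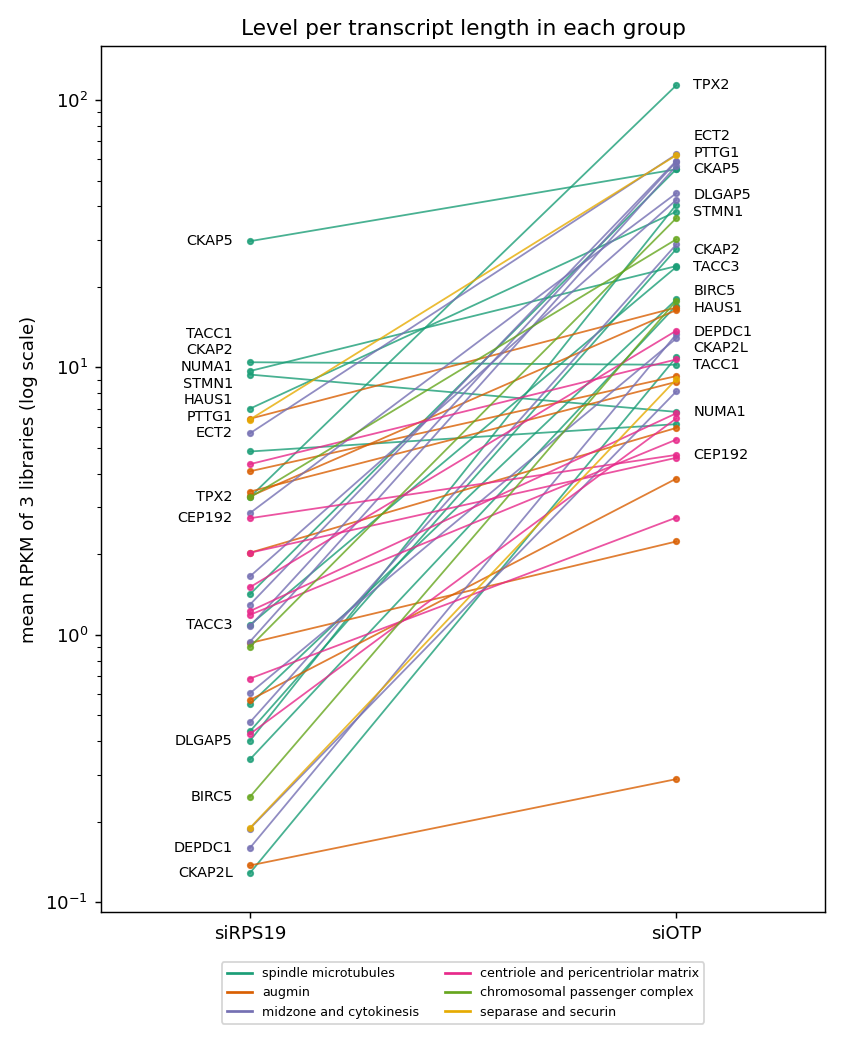
Mean RPKM of each of the 45 genes in siRPS19 (left) and siOTP (right), on a log axis, with a line per gene coloured by role and 15 genes named. Lines cross widely, as TPX2 leads in siOTP and CKAP5 in siRPS19, while TACC1 stays near 10 RPKM.

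Replicates of a group lay close together. The coefficient of variation of the CPM over 3 libraries had a median of 7.48% in siRPS19 and 2.62% in siOTP over the 45 genes, and its highest value in either group, 38.9% and 20.5%, was that of HAUS7. Counts per gene and library went down to 9 in siRPS19 and 19 in siOTP. Within siRPS19, replicate 2 was the lowest library for 27 of the 45 genes and the highest for 6, and replicate 1 was the highest for 22. The same shares over all genes tested were not computed, so these counts cannot be read as a trait of the 45 genes. Replicate 2 also had the lowest RPS19 of that group, and the part of this in the levels above was not tested. Of the 45 genes, 15 overlap no other gene in the authors' table, and all 15 fell, with a median log2 fold change of -3.21.

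Other genes of the same structures were described for comparison, from 4 lists with 90 genes, all tested. Of these, 61 fell and 18 rose, with a median log2 fold change of -0.44, where 43 of 45 and -3.28 were seen above. Over all genes tested, 38.9% fell and 39.5% rose, with a median of 0.02, so these lists also leaned to falls. The same shares are the background for the counts of each list below. At least 2-fold falls were found for 20 of the 90, against 12.4% of all genes tested, and at least 32-fold falls for 3, against 0.512%. Those 3 were TROAP (73.3-fold), GTSE1 (58.0-fold) and the formin gene DIAPH3 (70.2-fold). With library totals, 49 of the 90 fell and 29 rose. The shares of all genes tested under that scaling were not computed, and the 38.9% and 39.5% above are no background for these counts.

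Of 11 genes of the gamma-tubulin ring, 8 fell and 1 rose. TUBG1, gamma-tubulin itself, averaged 61.9 ± 1.48 CPM in siRPS19 and 183 ± 12.4 CPM in siOTP (mean ± SD of 3 libraries), and it has a near-identical paralog, TUBG2, at 37.2 ± 4.48 CPM in siRPS19 and 39.7 ± 2.20 CPM in siOTP. MZT1, a small subunit of the ring, fell 5.91-fold, TUBGCP3 2.83-fold, and NEDD1, which targets the ring to centrosomes and the spindle, had a log2 fold change of -0.97. Of 29 other centriole and centrosome genes, 18 fell and 6 rose, with ODF2 4.16-fold, RTTN 3.39-fold, CNTROB 2.33-fold and CEP72 4.49-fold lower.

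Of 25 other microtubule-binding and spindle-orientation genes, 17 fell and 6 rose. TROAP and GTSE1 were joined by KNSTRN, a kinetochore-associated spindle protein, 6.16-fold lower. MAPRE3, the plus-end protein EB3, was 4.90-fold higher, at 86.8 ± 1.33 CPM in siRPS19 and 17.7 ± 1.06 CPM in siOTP (mean ± SD of 3 libraries). Of 25 other contractile ring, septin and abscission genes, 18 fell and 5 rose. Apart from DIAPH3, their falls were small, with DIAPH1 2.13-fold, the RhoA effector kinase gene ROCK1 2.16-fold and ARF6 1.79-fold lower.

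**Figure D5:**
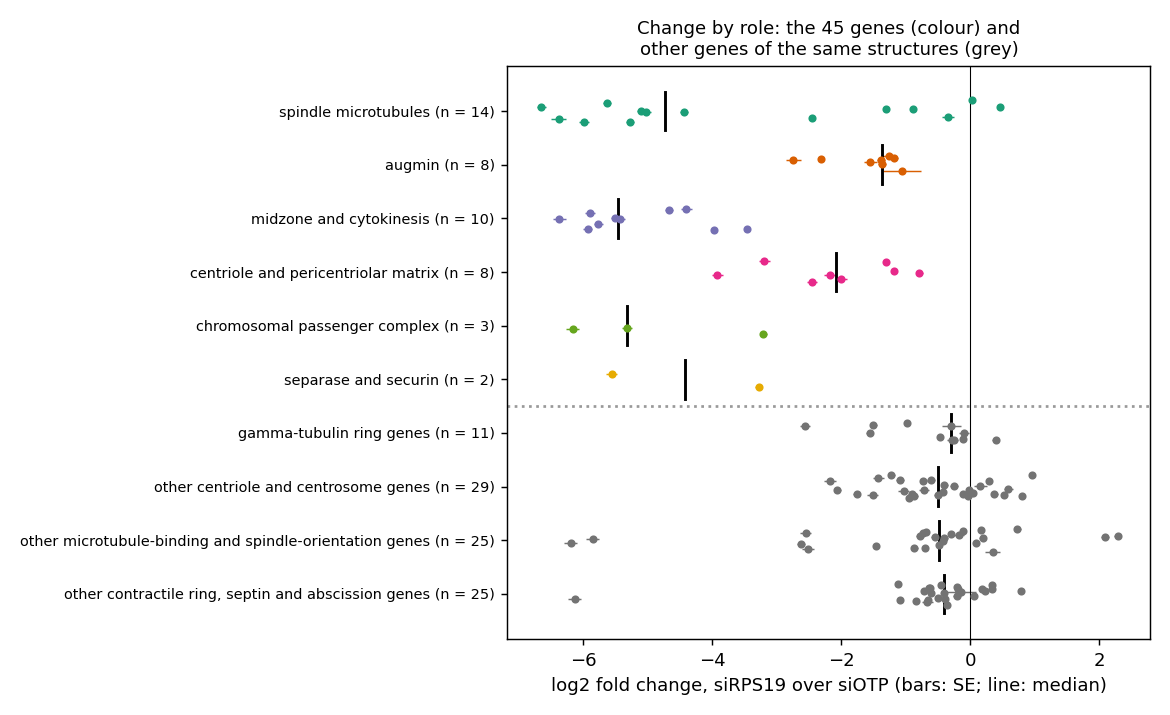
Log2 fold change of siRPS19 over siOTP with its SE for each gene, by role, with the 45 genes in colour, the 90 other genes of the same structures in grey and medians as black lines. The median is -5.47 for midzone and cytokinesis genes and -1.37 for augmin, and lies between -0.50 and -0.29 for the 4 grey lists.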

How the data were processed

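Each library came with whole-number gene counts, deposited without normalisation, and the authors' group table holds RPKM, gene names, coordinates and transcript lengths. The submitters' processing notes name TopHat2 version 2.0.8b, the counter HTSeq, the package DESeq, R version 3.0.2 and build hg19. The counting mode is not given in the sources used here. RPKM values printed without the authors' name were computed here from counts and the authors' lengths.

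Rows without a gene were left out, among them reads outside genes (3.39% to 6.36% of all entries) and ambiguous reads (7.50% to 8.24%). Rows named for low-quality, unaligned and not uniquely aligned reads were left out too, and their sizes are not given here. Genes passed filterByExpr (minimum count 10, minimum total 15), were scaled with TMM factors, and were tested with edgeR 4.0.16 in R 4.3.3 by its quasi-likelihood test, with Benjamini-Hochberg adjustment over all 17171 genes and a threshold of 0.05. The step was tested on simulated data with 200 genes changed, as many up as down. That setting does not cover a change as wide as the one here, where 78.3% of genes tested were called. The SE was taken as the absolute log2 fold change over the root of F. The alternatives covered scaling (3), the filter (2), a replicate block, libraries left out, DESeq2 1.42.0 and limma-voom from limma 3.58.1.

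The dates in the labels pair same-numbered replicates. Deviations from the group means correlated at 0.055, -0.095 and 0.045 within pairs over 17171 genes. Replicates differed by more than sampling noise (chi-square per degree of freedom 4.40 to 16.6).

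The 45 genes and all lists were chosen with earlier results of these data known. By rule, any of the 45 genes, RPS19, any marker, and up to 4 called genes with the smallest p in each comparison list could be named. IL18BP, LRTOMT, TREX2, ATP5A1, POLN, KIAA0895, ARHGAP11B and TUBG2 are named outside it, as neighbours or copies. Septins, whose symbols had become dates in the authors' table, were matched by Ensembl ID. A planned search of proteins was not made.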

Additional observations from a re-analysis of the deposited data

How the results depend on the processing

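Over 17 alternatives, 755 of 764 recomputed values of the 45 genes kept their direction and their side of the threshold, and all exceptions were of TACC1 and TACC2. HAUS7 did not pass the alternative filter on a mean CPM of at least 1, so its call could not be recomputed there. With library totals, which move the median of all genes to 0.31 from 0.02 on the log2 scale, 42 of the genes fell and 2 rose, the median was -2.995, TACC1 rose (0.32), TACC2 no longer passed (-0.05), and 29 of the 90 other genes rose, against 18. With upper-quartile factors 42 fell and 2 rose, the median was -3.11, and TACC1 rose by 0.20. The shares of all genes tested that fell or rose under either scaling were not computed. Counts of at least 2-fold falls are given with TMM factors only. Without a filter TACC1 was at -0.0200. When 1 library was left out, TACC1 ranged from -0.0070 to 0.0679, TACC2 from -0.43 to -0.27 and RPS19 from -5.21 to -5.05. When both libraries of a date were left out, TACC1 ranged from -0.0270 to 0.0705, TACC2 from -0.39 to -0.31, and the count that fell from 42 to 43. The fit with the replicate block, which uses the shared dates, gave 43 that fell, 1 that rose and a median of -3.28, and changed no call among the 45 genes. DESeq2 and limma-voom also gave 43 and 1. Depth limits HAUS7, CKAP2L, DEPDC1 and BIRC5 most, each with 30 counts or fewer in every siRPS19 library.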

Other observations

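The start-region search also covered genes outside the 45. Among tested genes with a window, 487 held both a CHR core and CCAAT, and their median log2 fold change was -0.34, while the 9354 without a CHR core had a median of -0.02. Both medians include the 45 genes. The shift of the larger set was therefore far smaller than the -5.47 seen for the 18 of the 45 genes that hold both elements.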
